A study of Homo sapiens with 18 samples.

Results

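The genes described here are a set of 46 named G1/S and DNA replication genes, of 58288 gene IDs in the count files. All 46 matched exactly 1 gene ID and all 46 passed the filter on low counts, so each had a test in every comparison. Their expression was measured by RNA-seq of polyadenylated RNA in 18 libraries from 3 high-grade serous ovarian cancer (HGSOC) lines, Kuramochi, OVCAR4 and OVCAR8, all labeled with green fluorescent protein. In the 3D omentum culture, cancer cells were grown for 48 h on collagen I with primary human omental fibroblasts under a layer of primary mesothelial cells, and were then recovered by fluorescence-activated sorting. The controls were the same lines grown on plastic and passed through a sham sort. There were 3 libraries for each line and culture, 18 in all, named by the replicate numbers in the labels (2, 4 and 8 in Kuramochi, 42, 4 and 6 in OVCAR4, and 4, 61 and 62 in OVCAR8). The lines are established cultures from different tumors, so 1 line is not a replicate of another. The comparison of 3D with plastic asks how the cells change early in colonization of the omentum.

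A cell enters S phase when cyclin E with CDK2 inactivates the retinoblastoma protein and frees E2F transcription factors, which switch on the genes needed to copy DNA. Before that, the origin recognition complex with CDC6 and CDT1 loads the ring-shaped MCM helicase onto origins (licensing). CDC45 and the GINS complex then join the MCM ring to make the working helicase, and polymerases, the sliding clamp PCNA and its loader RFC copy the strands. The messenger RNAs of these genes are high in dividing cells and low in resting cells.

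Total counts per library ranged from 28415048 to 43142540. Replicates differed by more than counting error, with a chi-square per degree of freedom of 9.43 to 114 between most pairs and of 1.98 to 3.12 between 3 pairs (OVCAR4 3D 4 and 6, OVCAR8 3D 61 and 62, and OVCAR8 plastic 4 and 62). Levels are given as CPM, the counts of a gene divided by the library size and set to 1 common scale, with library sizes corrected by the trimmed mean of M-values (TMM), given in the replicate order above. Among marker genes of the lines, PAX8 was detected in all 3 lines (58.8 to 476 CPM on plastic), while CDH1 was at 0.367 CPM in Kuramochi and 1.09 CPM in OVCAR8, against 137 CPM in OVCAR4. The summed RNA of fibroblast markers was also higher in each sorted 3D library than on plastic, except in OVCAR8 3D replicate 4. Some of these markers had counts on plastic too, where no fibroblasts were added. Of 10 fibroblast markers, 8 rose on 3D in Kuramochi, 10 in OVCAR4 and 7 in OVCAR8, and DCN and POSTN were at 0 CPM in every plastic group. The summed fibroblast markers ran from 579 to 1359 CPM on 3D against 347 to 444 CPM on plastic in Kuramochi, from 139.95 to 1189 against 21.2 to 21.6 CPM in OVCAR4, and from 690.2 to 2908.5 against 661 to 725 CPM in OVCAR8. Of 5 mesothelial markers tested, 3 rose in Kuramochi, where UPK3B fell, 3 in OVCAR4 and 2 in OVCAR8, CALB2 and LRRN4 among them in each line. The sum over all 6 mesothelial markers, of which UPK3B was the largest term in Kuramochi, was 33.0 to 49.0 CPM on 3D and 38.6 to 89.3 CPM on plastic there, 119 to 132 and 102 to 168 CPM in OVCAR4, and 57.5 to 60.8 and 49.9 to 56.2 CPM in OVCAR8. Of 2 leukocyte markers tested, 1, 1 and 2 rose. The 4 leukocyte markers summed to 1.5 to 3.94 CPM on 3D against 0.554 to 0.854 CPM on plastic in Kuramochi, 1.63 to 2.17 against 0.781 to 1.27 CPM in OVCAR4, and 0.895 to 1.45 against 0.379 to 0.493 CPM in OVCAR8, so that in each line every 3D library was above every plastic library, at a low level. The strand setting of the counting is not given, so reads of members that overlap another gene on the opposite strand may not have been told apart. Among these are TYMS with ENOSF1, GINS2 with GSE1, MCM7 with AP4M1, RFC4 with EIF4A2, and CCNE2 with INTS8 and NDUFAF6. The part of stromal RNA in the results was not tested, and in bulk RNA a smaller share of S-phase cells cannot be told apart from less RNA per cell.

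The replication genes were lower on 3D than on plastic, and none was called higher in any line, where edgeR at an unadjusted p under 0.05 and DESeq2 also called 0 (14.4%, 15.2% and 7.51% of all genes were called higher in Kuramochi, OVCAR4 and OVCAR8). By the edgeR quasi-likelihood test (Benjamini-Hochberg adjusted p under 0.05 over 22023 genes), 29 of the 46 fell in Kuramochi, where 12.8% of all genes tested were called lower. In OVCAR4, 33 of the 46 fell, against 11.9% of all genes, and in OVCAR8 13 of the 46 fell, against 3.32% of all genes. The median log2 fold change of the 46 was -0.51 in Kuramochi, -0.51 in OVCAR4 and -0.37 in OVCAR8, beside medians of 0.02, 0.04 and 0.02 over all genes tested. The point estimate was below 0 for 43, 44 and 44 of the 46, so the decrease was broad and mostly smaller than 2-fold. At least 2-fold falls were called for 4 genes in Kuramochi (TK1, GINS2, CDT1 and TYMS), for GINS2 in OVCAR4 and for CCNE2 in OVCAR8, beside 2.64%, 1.86% and 0.722% of all genes.

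**Figure D1:**
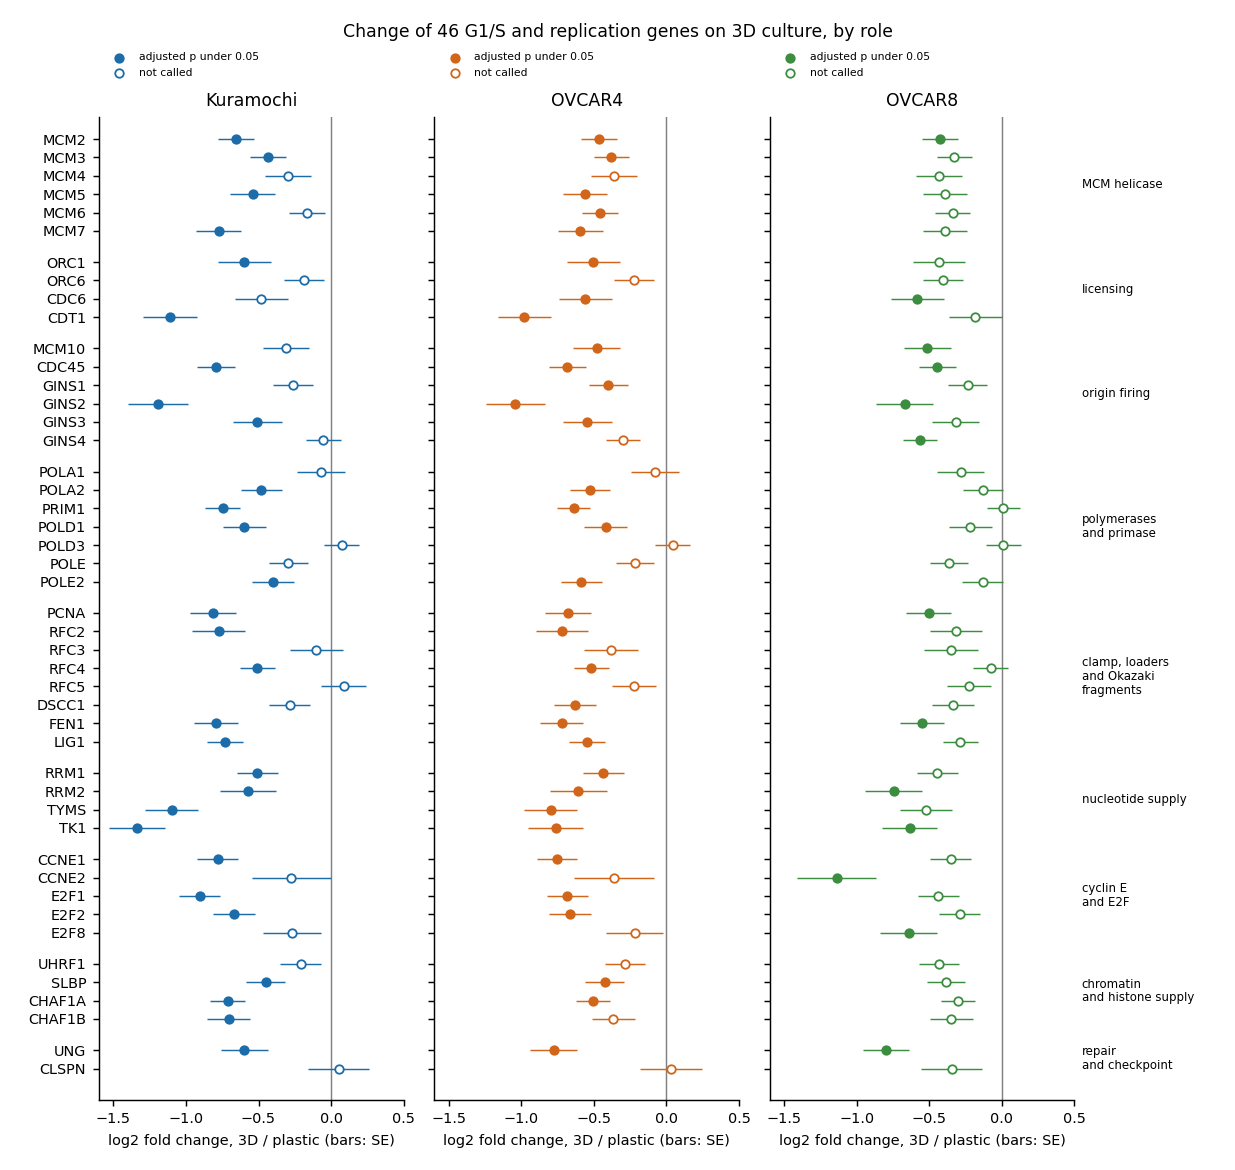
Log2 fold change of each of the 46 genes on 3D against plastic (x axis, with SE bars) in the 3 lines, ordered by role (y axis). Filled circles are genes with an adjusted p under 0.05, which number 29, 33 and 13, and all of them lie to the left of 0.

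The 3D libraries lay wholly below the plastic libraries for 30 of the 46 genes in Kuramochi, where this held for 15.5% of all genes. It held for 35 genes in OVCAR4 (20.6% of all genes) and for 35 in OVCAR8 (19.8% of all genes). No member had its 3D libraries wholly above plastic in any line, while 17.2%, 25.5% and 21.6% of all genes did. In OVCAR8, separation of the libraries was thus seen for more genes than were called, and the 3D libraries there were unequal. The mean log2 level of the 46 genes relative to plastic was -0.164 in 3D replicate 4 of OVCAR8, against -0.538 and -0.511 in replicates 61 and 62.

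Counts of falls depended on single libraries in OVCAR8 more than in the other lines. Without 3D replicate 4 of OVCAR8, 30 of the 46 fell there, and the median log2 fold change was -0.515. The count rose to 21 when plastic replicate 2 of Kuramochi was left out. It dropped to 8 when 3D replicate 6 of OVCAR4 was left out, to 5 when plastic replicate 8 of Kuramochi was, and to 4 when plastic replicate 61 of OVCAR8 was. It was 2 without any 1 of OVCAR8 3D replicates 61 and 62 and plastic replicates 4 and 62. In Kuramochi the count was 19 without 3D replicate 8, and in OVCAR4 it was 18 without 3D replicate 4 and 19 without 3D replicate 6. A pair of 3D libraries in OVCAR4 (4 and 6), a pair of 3D libraries in OVCAR8 (61 and 62) and a pair of plastic libraries in OVCAR8 (4 and 62) differed by far less than other replicates, although by more than sampling noise. With each such pair counted as 1 sample, 26, 9 and 0 members fell in Kuramochi, OVCAR4 and OVCAR8. A separate fit of OVCAR8 alone called 28, and scaling by total counts alone called 5, with 43 of the 46 estimates still below 0.

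**Figure D2:**
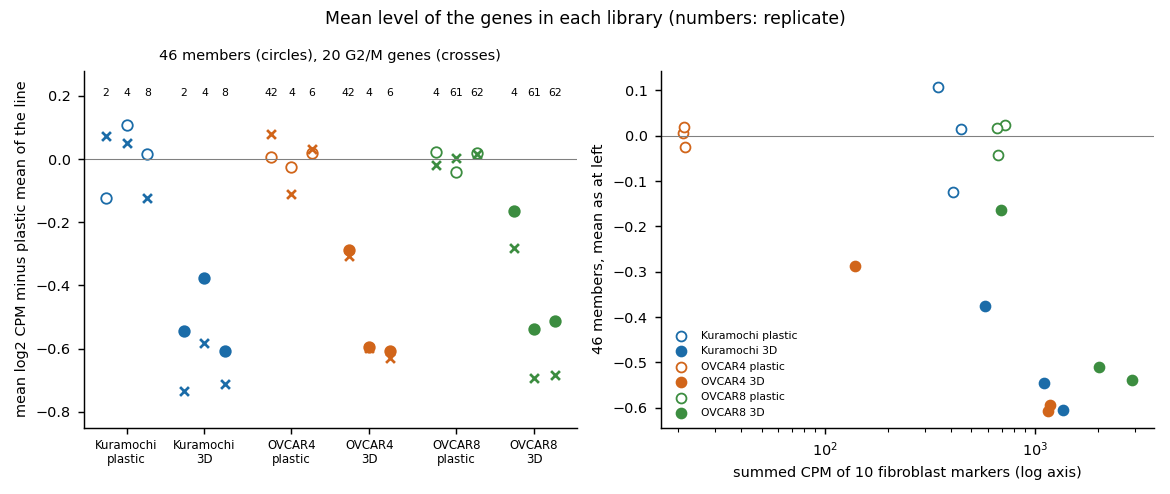
Left, mean log2 CPM of the 46 genes (circles) and of 20 G2/M genes (crosses) in each library relative to the plastic mean of its line, with open circles for plastic and filled circles for 3D. Right, the same mean for the 46 genes (y axis) against the summed CPM of 10 fibroblast markers (x axis, log scale). In each line the 3D library with the lowest fibroblast marker sum lies highest among the 3D libraries, at -0.375 in Kuramochi, -0.287 in OVCAR4 and -0.164 in OVCAR8.

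Within each line the 3D library with the lowest fibroblast marker sum also had the smallest decrease of the replication genes. These were replicate 4 of Kuramochi (579 CPM, mean log2 difference -0.375), replicate 42 of OVCAR4 (139.95 CPM, -0.287) and replicate 4 of OVCAR8 (690.2 CPM, -0.164). The other 3D libraries had 1111 to 2908.5 CPM of these markers and mean differences of -0.511 to -0.608. Over the plastic libraries the means lay between -0.123 and 0.108. The relation between the 2 measures was not tested.

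Genes for the supply of thymidylate and deoxynucleotides had estimates below 0 in every line. All 4 genes of nucleotide supply were called lower in Kuramochi and in OVCAR4, and 2 of 4 in OVCAR8. TK1, the salvage kinase for thymidine, stood at 125, 249 and 193 CPM on plastic and at 79.1, 72.9 and 72.8 CPM on 3D in Kuramochi. TK1 in OVCAR4 was measured at 405, 561 and 420.04 CPM on plastic and at 295, 255 and 266 CPM on 3D. TK1 in OVCAR8 was measured at 331, 365 and 317 CPM on plastic and at 259.6, 198 and 195 CPM on 3D. The 3D libraries lay below the plastic libraries in every line, and the Kuramochi plastic libraries were spread the most relative to their mean. The log2 fold changes of TK1 were -1.33 ± 0.19 (SE), -0.76 ± 0.19 and -0.64 ± 0.19, with adjusted p values of 0.000227, 0.00784 and 0.0389. TYMS, thymidylate synthase, fell from 114, 192 and 169 to 71.5, 84.1 and 65.9 CPM in Kuramochi (log2 fold change -1.10 ± 0.18, adjusted p = 0.000595). In OVCAR4 TYMS fell by a log2 fold change of -0.80 ± 0.18 (adjusted p = 0.00481), and in OVCAR8 it was -0.52 ± 0.18 (adjusted p = 0.0669). RRM2, the regulated small subunit of ribonucleotide reductase, fell in all 3 lines, by -0.57 ± 0.19, -0.61 ± 0.20 and -0.74 ± 0.19 on the log2 scale. Each of its calls rested on 4 libraries, which were 3D replicates 2 and 8 and plastic replicates 4 and 8 in Kuramochi, 3D replicates 4 and 6 and plastic replicates 42 and 6 in OVCAR4, and 3D replicates 61 and 62 and plastic replicates 4 and 62 in OVCAR8 (adjusted p = 0.0507 to 0.141 without any 1 of them). Its partner RRM1 was at 122 to 139 CPM on plastic and 81.6 to 112 CPM on 3D in Kuramochi, at 145 to 176 and 109 to 141 CPM in OVCAR4, and at 189 to 196 and 128 to 167 CPM in OVCAR8. RRM1 changed least of the 4, at -0.51 ± 0.14, -0.43 ± 0.14 and -0.44 ± 0.14, and its calls in Kuramochi and OVCAR4 ended without either of 3D replicates 2 and 8, or without any 1 of 3D replicates 4 and 6 and plastic replicates 42 and 6 (adjusted p = 0.0541 to 0.132).

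**Figure D3:**
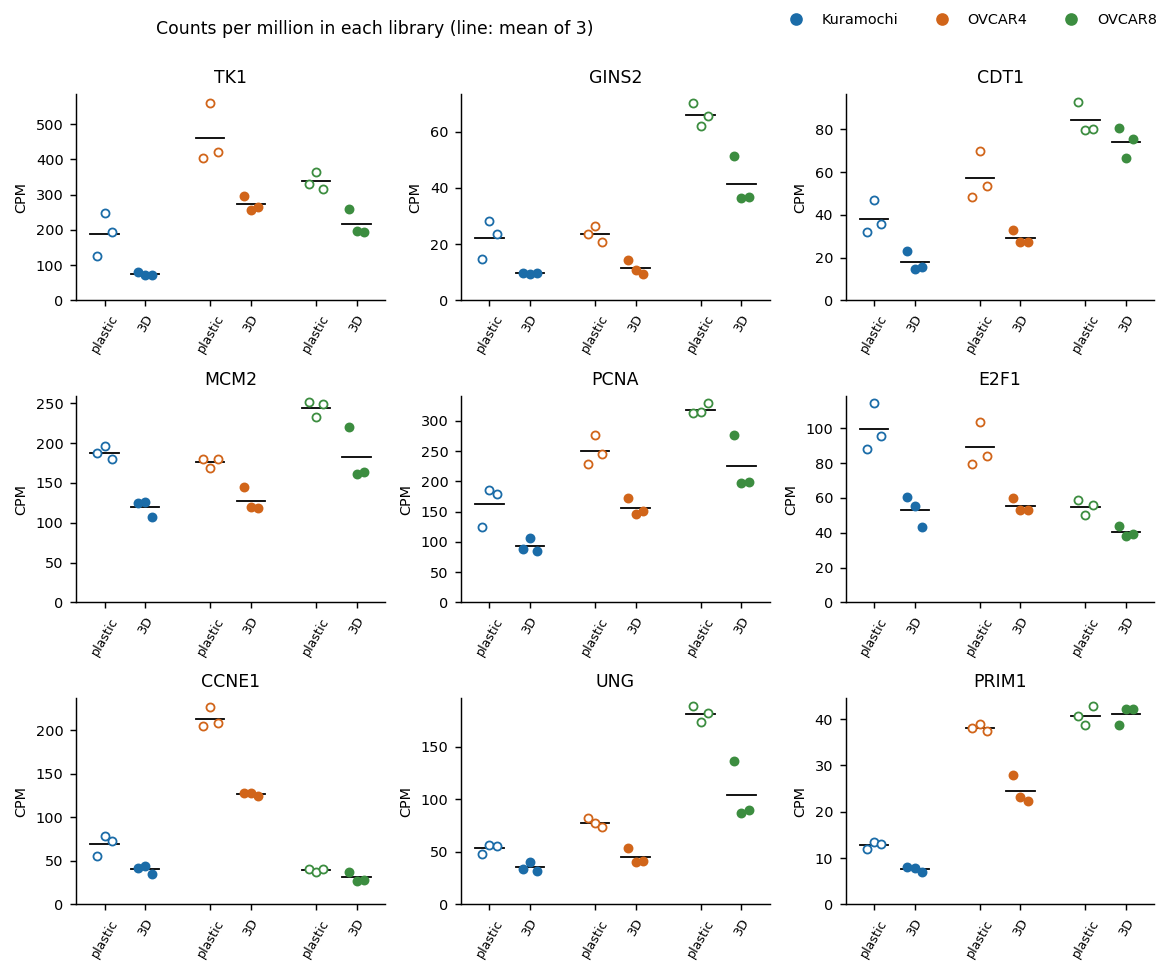
CPM of 9 genes in each library (y axis, from 0) by line and culture (x axis), with open circles for plastic, filled circles for 3D and a line at the mean of 3 libraries. In Kuramochi and OVCAR4 all 9 genes lie lower on 3D, while PRIM1 in OVCAR8 stays at 38.8 to 42.8 CPM on plastic and 38.8 to 42.2 CPM on 3D.

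Licensing factors split by gene. CDT1, which loads the MCM ring, was called lower in 2 of the lines and not in the third. It stood at 31.9, 47 and 35.6 CPM on plastic and 23.1, 14.6 and 15.4 CPM on 3D in Kuramochi. The OVCAR4 libraries held CDT1 at 48.4, 69.8 and 53.4 CPM on plastic and 32.9, 27.1 and 27.1 CPM on 3D. The OVCAR8 libraries held CDT1 at 92.6, 79.8 and 80.2 CPM on plastic and 80.6, 66.3 and 75.6 CPM on 3D, where the groups overlapped. The log2 fold changes were -1.11 ± 0.19 (adjusted p = 0.000662), -0.98 ± 0.18 (adjusted p = 0.00177) and -0.18 ± 0.18 (adjusted p = 0.55). ORC6, a subunit of the origin recognition complex, was called in no line, with 3D and plastic at 36.5 to 53.2 and 41.3 to 57.1 CPM in Kuramochi, 84.8 to 93.1 and 98.4 to 107 CPM in OVCAR4, and 52 to 62 and 71.5 to 74.6 CPM in OVCAR8. Its log2 fold changes were -0.18 ± 0.14, -0.22 ± 0.14 and -0.40 ± 0.14. In all, 2, 3 and 1 of the 4 licensing genes fell in Kuramochi, OVCAR4 and OVCAR8.

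Of the 6 subunits of the MCM helicase, which unwinds DNA at the fork, 4 fell in Kuramochi, 5 in OVCAR4 and 1 in OVCAR8, and all 18 estimates were below 0. MCM2 stood at 187, 197 and 181 CPM on plastic and 125, 127 and 107 CPM on 3D in Kuramochi. In the OVCAR4 line MCM2 was at 179.6, 169 and 179.9 CPM on plastic and 145, 120.1 and 118 CPM on 3D. In the OVCAR8 line MCM2 was at 252, 233 and 249 CPM on plastic and 220.2, 162 and 164 CPM on 3D. The groups did not overlap in any line, and replicate 42 of OVCAR4 and replicate 4 of OVCAR8 were the highest of the 3D libraries. MCM2 fell by -0.65 ± 0.13 (adjusted p = 0.00163), -0.46 ± 0.13 (adjusted p = 0.0123) and -0.43 ± 0.13 (adjusted p = 0.0366) on the log2 scale. The call in OVCAR4 ended without 3D replicate 4 (adjusted p = 0.0651) or 6 (adjusted p = 0.0669). MCM7 changed most among the subunits in Kuramochi and OVCAR4 but not in OVCAR8, where MCM4 and MCM2 had larger estimates. It went from 369, 589 and 488 to 271, 313 and 262 CPM in Kuramochi (log2 fold change -0.77 ± 0.15, adjusted p = 0.00201). It was at 545 to 661 CPM on plastic and 373 to 441 CPM on 3D in OVCAR4 (-0.59 ± 0.15), a call that ended without 3D replicate 4 (adjusted p = 0.0508), and at 321 to 329 and 224 to 296 CPM in OVCAR8 (-0.39 ± 0.15, adjusted p = 0.108). MCM6 changed least in Kuramochi and in the mean of the 3 lines, with 3D libraries at 113 to 145 CPM and plastic at 132 to 145 CPM in Kuramochi (-0.17 ± 0.12, adjusted p = 0.334), and with log2 fold changes of -0.46 ± 0.12 in OVCAR4 and -0.34 ± 0.12 in OVCAR8. The subunits of the ring therefore shared a direction while their estimates in Kuramochi ran from -0.77 to -0.17.

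Among the factors that fire origins, GINS2 gave some of the largest decreases. It stood at 14.8, 28.1 and 23.4 CPM on plastic and 9.75, 9.52 and 9.76 CPM on 3D in Kuramochi. In OVCAR4 it stood at 23.5, 26.3 and 20.9 CPM on plastic and 14.3, 10.6 and 9.46 CPM on 3D. In OVCAR8 it stood at 70.4, 62.1 and 65.8 CPM on plastic and 51.2, 36.5 and 36.9 CPM on 3D. The 3D libraries were lower throughout, and OVCAR8 had more GINS2 on 3D than the other lines had on plastic. The log2 fold changes were -1.19 ± 0.20 (adjusted p = 0.000754), -1.04 ± 0.20 (adjusted p = 0.00218) and -0.67 ± 0.20 (adjusted p = 0.036). Its partner subunits in the same complex moved less. GINS1 was at 22.2 to 26.4 CPM on plastic and 18.1 to 24.6 CPM on 3D in Kuramochi, 25.2 to 28.9 and 18.2 to 21.8 CPM in OVCAR4, and 43 to 50.4 and 37.1 to 44.9 CPM in OVCAR8, with log2 fold changes of -0.26 ± 0.14, -0.40 ± 0.14 and -0.23 ± 0.13. GINS4 showed the opposite order of the lines, with 85.5, 87.2 and 86 CPM on plastic and 65.5, 55.5 and 54.2 CPM on 3D in OVCAR8 (-0.56 ± 0.12, adjusted p = 0.0051). In Kuramochi GINS4 was at 26.7 to 30.7 CPM on plastic and 24.2 to 30.2 CPM on 3D (-0.05 ± 0.12), and in OVCAR4 at 46.9 to 56 and 39.9 to 47 CPM (-0.30 ± 0.12). The difference of the GINS4 response between lines did not pass the test (adjusted p = 0.152). CDC45, which binds GINS and MCM, fell in all 3 lines, by -0.79 ± 0.13, -0.68 ± 0.13 and -0.44 ± 0.13. In all, 3, 5 and 4 of the 6 firing factors fell in Kuramochi, OVCAR4 and OVCAR8.

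The polymerase and primase subunits held both the clearest difference between lines and the genes that changed least. PRIM1 is the catalytic subunit of primase, which starts each new DNA fragment with an RNA primer (chr12:56730438-56752374, GRCh38, where it overlaps NACA on its strand and HSD17B6 on the other). It stood at 11.9, 13.5 and 13 CPM on plastic and 7.99, 7.88 and 6.95 CPM on 3D in Kuramochi. PRIM1 in OVCAR4 was measured at 38, 38.9 and 37.5 CPM on plastic and 27.9, 23.1 and 22.4 CPM on 3D. PRIM1 in OVCAR8 was measured at 40.7, 38.8 and 42.8 CPM on plastic and 38.8, 42.1 and 42.2 CPM on 3D. The groups were far apart in Kuramochi and OVCAR4 and overlapped in OVCAR8. The log2 fold changes were -0.75 ± 0.12 (adjusted p = 0.000413), -0.64 ± 0.11 (adjusted p = 0.00127) and 0.01 ± 0.11 (adjusted p = 0.978). POLD3, a small subunit of polymerase delta, was level in the estimates, at 35.7 to 44.5 CPM on 3D and 32.4 to 41 CPM on plastic in Kuramochi, 36.5 to 39.6 and 32.2 to 40.3 CPM in OVCAR4, and 64.4 to 72.6 and 65 to 69.4 CPM in OVCAR8. Its log2 fold changes were 0.07 ± 0.12, 0.04 ± 0.12 and 0.01 ± 0.12, and the groups overlapped in each line. POLD1, the catalytic subunit of the same polymerase, was lower by -0.60 ± 0.15 in Kuramochi (adjusted p = 0.00701). In all, 4, 4 and 0 of the 7 subunits fell in Kuramochi, OVCAR4 and OVCAR8, where in OVCAR8 edgeR called 1 at an unadjusted p under 0.05 and DESeq2 called 0.

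PCNA, the sliding clamp that tethers polymerases to DNA, stood at 124, 186 and 179 CPM on plastic and 88.7, 106 and 84.1 CPM on 3D in Kuramochi. The OVCAR4 libraries held PCNA at 229, 277 and 246 CPM on plastic and 173, 146 and 150.2 CPM on 3D. The OVCAR8 libraries held PCNA at 312, 315 and 329 CPM on plastic and 277, 198 and 199 CPM on 3D. The groups did not overlap in any line, and OVCAR8 was the highest in both cultures. PCNA fell by -0.81 ± 0.16 (adjusted p = 0.00178), -0.68 ± 0.16 (adjusted p = 0.00545) and -0.50 ± 0.16 (adjusted p = 0.0471). FEN1, the nuclease that trims Okazaki fragments, fell by -0.79 ± 0.15, -0.72 ± 0.15 and -0.55 ± 0.15, from 95.9 to 144 to 68.1 to 75.3 CPM in Kuramochi, from 144 to 162 to 84 to 106 CPM in OVCAR4 and from 162 to 179 to 102 to 138 CPM in OVCAR8. LIG1, the ligase that joins those fragments, fell in Kuramochi from 141, 162 and 148 to 95.2, 91.7 and 84 CPM (-0.73 ± 0.12, adjusted p = 0.000644) and in OVCAR4 from 37.5, 44.5 and 44.5 to 31.1, 27.8 and 27.9 CPM (-0.54 ± 0.12, adjusted p = 0.00483), while in OVCAR8 the estimate was -0.29 ± 0.12 (adjusted p = 0.139). The clamp loader subunits were uneven. RFC4 fell in Kuramochi from 47 to 65.2 to 39.1 to 41.4 CPM (-0.51 ± 0.12, adjusted p = 0.00585) and in OVCAR4 from 66.6 to 83.9 to 49.7 to 54.5 CPM (-0.52 ± 0.12, adjusted p = 0.0056), with -0.08 ± 0.12 in OVCAR8 (55 to 57.7 and 51.2 to 57.1 CPM). RFC5 was called in no line, with log2 fold changes of 0.09 ± 0.15, -0.22 ± 0.15 and -0.22 ± 0.15, and its highest 3D library in Kuramochi (40.5 CPM) lay above every plastic library of that line. In all, 5, 6 and 2 of the 8 genes of this role fell.

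CCNE1 encodes cyclin E1, whose gene is amplified in a share of HGSOC. It stood at 56, 78.1 and 72.4 CPM on plastic and 41.3, 44.2 and 34.8 CPM on 3D in Kuramochi. In the OVCAR4 line CCNE1 was at 205, 227 and 208 CPM on plastic and 127, 128 and 124 CPM on 3D. In the OVCAR8 line CCNE1 was at 40.8, 37.2 and 40.2 CPM on plastic and 37.6, 26.8 and 28.3 CPM on 3D. The groups did not meet in Kuramochi and OVCAR4 and overlapped in OVCAR8. CCNE1 fell by -0.78 ± 0.14 (adjusted p = 0.00108) and -0.75 ± 0.14 (adjusted p = 0.00168), with -0.35 ± 0.14 in OVCAR8 (adjusted p = 0.116, and 0.016 without 3D replicate 4). CCNE2, the paralog cyclin E2, was called in OVCAR8 alone, from 48.7, 40.2 and 48.7 to 30.01, 16.4 and 16.2 CPM (-1.14 ± 0.27, adjusted p = 0.0126). This call ended without 3D replicate 61 (adjusted p = 0.0906) or 62 (0.089) or plastic replicate 4 (0.0536) or 62 (0.0542), and the difference of the response between lines did not pass (adjusted p = 0.267). E2F1, an activator of S-phase genes, stood at 87.9, 115 and 95.5 CPM on plastic and 60.6, 55.5 and 43 CPM on 3D in Kuramochi. In OVCAR4 it stood at 79.3, 103 and 84.4 and 60.2, 53 and 53.3 CPM, and in OVCAR8 at 58.7, 50.1 and 55.9 and 44, 38.2 and 39.3 CPM. The 3D libraries were lower in every line, with log2 fold changes of -0.91 ± 0.14 (adjusted p = 0.000422), -0.68 ± 0.14 (adjusted p = 0.00316) and -0.44 ± 0.14 (adjusted p = 0.0547). E2F8, a repressor of the same family, was at 15.2 to 18.9 CPM on plastic and 12.1 to 16.7 CPM on 3D in Kuramochi, 15.1 to 27.1 and 15.6 to 22.2 CPM in OVCAR4, and 23.7 to 25.7 and 13.9 to 19.1 CPM in OVCAR8, with log2 fold changes of -0.27 ± 0.20, -0.22 ± 0.20 and -0.64 ± 0.20. In all, 3, 3 and 2 of the 5 genes of this role fell.

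UNG, the glycosylase that removes uracil from new DNA, fell in all 3 lines and was 1 of 2 calls in OVCAR8, with GINS4, that held without any 1 library. It stood at 47.6, 56.7 and 56 CPM on plastic and 33.6, 40.4 and 31.9 CPM on 3D in Kuramochi. UNG in OVCAR4 was measured at 82.4, 77.6 and 73.7 CPM on plastic and 53.7, 40.8 and 41.7 CPM on 3D. In OVCAR8 it stood at 189, 174 and 182 CPM on plastic and 137, 87.3 and 89.5 CPM on 3D. The groups did not overlap in any line, and the highest 3D library of OVCAR8 was again replicate 4. The log2 fold changes were -0.60 ± 0.16 (adjusted p = 0.0113, and 0.0571 without 3D replicate 8), -0.78 ± 0.16 (adjusted p = 0.00292) and -0.80 ± 0.16 (adjusted p = 0.00354). CLSPN, the checkpoint adaptor claspin, was called in no line, at 48.4 to 73 CPM on plastic and 51 to 72.3 CPM on 3D in Kuramochi, 27.7 to 48.5 and 35.2 to 51.7 CPM in OVCAR4, and 70.6 to 76.2 and 51.5 to 69.7 CPM in OVCAR8. Its log2 fold changes were 0.05 ± 0.21, 0.03 ± 0.21 and -0.35 ± 0.21. CHAF1A, the large subunit of the histone chaperone CAF-1, fell by -0.71 ± 0.12 in Kuramochi (adjusted p = 0.000625) and -0.50 ± 0.12 in OVCAR4 (adjusted p = 0.00568), with -0.30 ± 0.12 in OVCAR8, from 52.1 to 63.1 to 31.7 to 37.1 CPM in the first of these and from 55.9 to 66.3 to 41.4 to 46.2 CPM in the next. In all, 3, 2 and 0 of the 4 chromatin and histone supply genes fell, and in OVCAR8 edgeR called 4 at an unadjusted p under 0.05 and DESeq2 called 2.

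Taken gene by gene, 8 of the 46 (17.4%) were called lower in all 3 lines: CDC45, FEN1, GINS2, MCM2, PCNA, RRM2, TK1 and UNG. Over all genes tested the share was 0.990%. A further 22 members fell in 2 lines, and 9 were called in none, namely CLSPN, MCM4, ORC6, POLA1, POLD3, POLE, RFC3, RFC5 and UHRF1. The number called in all 3 lines varied with single libraries, at 21 without 3D replicate 4 of OVCAR8 and 14 without Kuramochi plastic replicate 2. It was 5 and 4 without OVCAR4 3D replicates 4 and 6, 2 without Kuramochi plastic replicate 8 or OVCAR8 plastic replicate 61, and 1 without any 1 of OVCAR8 3D replicates 61 and 62 and plastic replicates 4 and 62. In OVCAR8 the calls of MCM2, GINS2, CDC45, FEN1, PCNA, TK1 and E2F8 each ended without any 1 of 3D replicates 61 and 62 and plastic replicates 4, 61 and 62 (adjusted p = 0.066 to 0.232). Some of these calls also ended without a library of another line, in a fit that shares its scaling, its filter and 1 estimate of the spread over all libraries (adjusted p = 0.0504 to 0.0664, on leaving out replicate 8 of Kuramochi in either culture, 3D replicate 4 or 6 of OVCAR4, or its plastic replicate 6).

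The sizes of the changes ran closer together in Kuramochi and OVCAR4 than in OVCAR8. Across the 46 genes, Pearson r between the changes in Kuramochi and those in OVCAR4 was 0.86. With OVCAR8 the values were r = 0.155 for Kuramochi and r = 0.185 for OVCAR4. These are descriptions over genes, which are not independent replicates, and Kuramochi and OVCAR4 also shared a dependence on transcript length that was weaker in OVCAR8.

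The test of the difference between lines itself passed for 1 of the 46 genes, PRIM1 (adjusted p = 0.0122), while 6.17% of all genes tested passed it. The PRIM1 response in OVCAR8 exceeded that in Kuramochi by 0.76 ± 0.16 on the log2 scale (adjusted p = 0.0104) and that in OVCAR4 by 0.65 ± 0.16 (adjusted p = 0.0274), tests that 5.71% and 4.04% of all genes passed. The joint test held without any 1 library and was lost with close libraries counted as 1 sample (adjusted p = 0.205). The difference from OVCAR4 alone was lost without any 1 of OVCAR4 3D replicates 4 and 6 and plastic replicate 6, and OVCAR8 3D replicates 61 and 62 and plastic replicates 4, 61 and 62 (adjusted p = 0.0527 to 0.0953). CDT1 came next in the joint test, at an adjusted p of 0.0578, and passed it with DESeq2 (0.0136), with scaling by total counts (0.0248) and without any 1 of 4 libraries, Kuramochi 3D and plastic replicates 2 and OVCAR4 3D and plastic replicates 42 (0.0135 to 0.0492). For the remaining members, TK1, LIG1, RFC4 and GINS4 among them, the test did not pass, so a call in some lines and not in others does not show that the lines differed.

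The lines differed in the level of many of these genes before any contact with stroma, as they did in many of all genes tested. On plastic, OVCAR8 had more of 30 members than Kuramochi and less of 6, where 32.2% and 35.5% of all genes were called higher and lower. Against OVCAR4 it had more of 28 and less of 10, beside 33.6% and 35.3% of all genes. OVCAR4 had more of 16 than Kuramochi and less of 10, beside 30.1% and 31.6% of all genes. The median log2 differences over the 46 genes were 0.58, 0.55 and 0.16, in that order. At least 2-fold, OVCAR8 had more of 10 and less of 1 than Kuramochi (20.4% and 24.6% of all genes) and more of 9 and less of 2 than OVCAR4 (21.8% and 24.9%), and OVCAR4 had more of 8 and less of 3 than Kuramochi (18.8% and 19.2%). The 16 members higher in OVCAR4 than in Kuramochi, and the 2-fold higher counts of 10, 9 and 8, lie near the shares of all genes. Nothing is read from these counts.

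**Figure D4:**
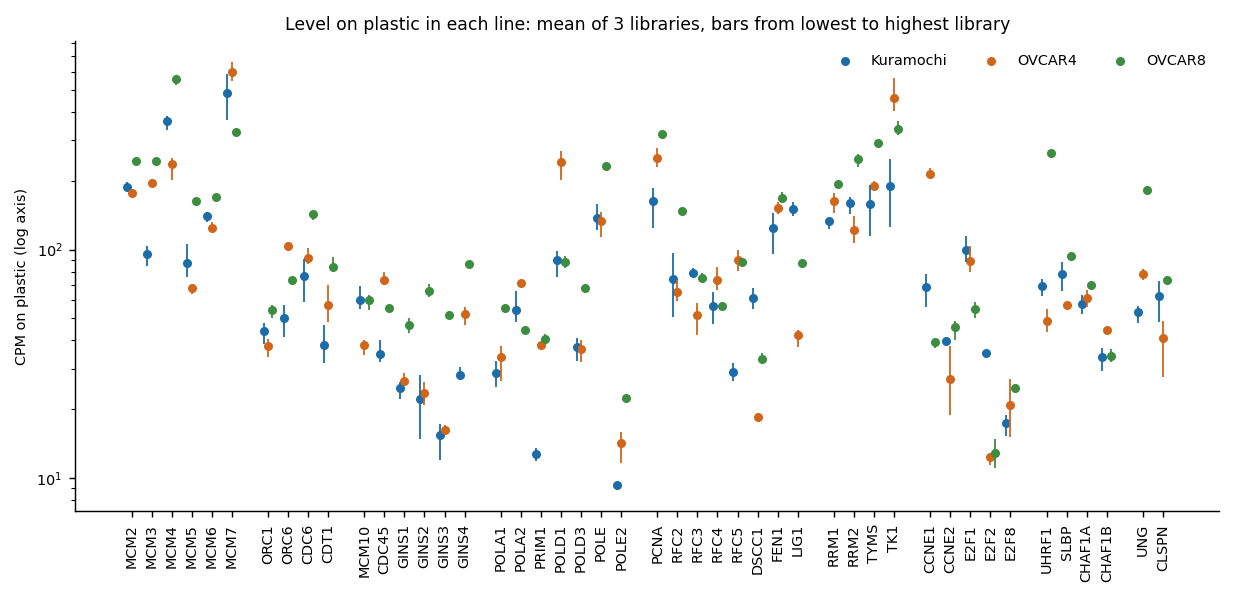
CPM of the 46 genes on plastic (y axis, log scale) in Kuramochi, OVCAR4 and OVCAR8, as the mean of 3 libraries with bars from the lowest to the highest library, ordered by role (x axis). CCNE1 stands highest in OVCAR4 (213 CPM) and UHRF1 highest in OVCAR8 (264 CPM).

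CCNE1 was at 213 ± 11.8 CPM (SD, n = 3) on plastic in OVCAR4, 68.9 ± 11.5 CPM in Kuramochi and 39.4 ± 1.9 CPM in OVCAR8, each pair of lines apart by more than the spread of libraries. Its log2 difference was 1.63 ± 0.14 between OVCAR4 and Kuramochi (adjusted p = 1.77e-08) and -2.44 ± 0.15 between OVCAR8 and OVCAR4 (adjusted p = 7.24e-11). Even on 3D, OVCAR4 kept more CCNE1 (124 to 128 CPM) than either other line had on plastic. UHRF1, which couples DNA methylation to replication, was at 264 ± 8.89 CPM in OVCAR8, 69.5 ± 6.28 CPM in Kuramochi and 48.6 ± 5.95 CPM in OVCAR4 (OVCAR8 against OVCAR4 2.44 ± 0.15, adjusted p = 6.34e-11). On 3D it was at 233, 174 and 179 CPM in OVCAR8, 53.7 to 68.5 CPM in Kuramochi and 36.5 to 45.5 CPM in OVCAR4, and it was called changed by 3D in no line. LIG1 was highest in Kuramochi, at 150.1 ± 10.9 CPM in Kuramochi, 86.9 ± 3.73 CPM in OVCAR8 and 42.2 ± 4.03 CPM in OVCAR4 (OVCAR4 against Kuramochi -1.83 ± 0.13, adjusted p = 7.25e-10). PRIM1 was at 12.8 ± 0.823 CPM in Kuramochi, below OVCAR4 at 38.1 ± 0.715 CPM and OVCAR8 at 40.7 ± 1.99 CPM, and the latter pair did not differ beyond their spread (0.10 ± 0.11, adjusted p = 0.461). For CCNE1, UHRF1, LIG1 and PRIM1 no call on plastic changed without any 1 library. Per kilobase of merged exons, PCNA and TK1 had the highest values of the 46 in all 3 lines, with 116 and 102 CPM per kilobase in Kuramochi, 179 and 250.4 in OVCAR4, and 227 and 183 in OVCAR8. This order depends on the length used, and it was not computed for canonical transcripts. MCM7 has 4960 bases of merged exons but a canonical transcript of 2467, against 1403 and 1276 for PCNA and 1845 and 1431 for TK1.

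Changes on 3D also moved with transcript length. Over 10909 genes at 10 CPM or more, the log2 fold change correlated with the length of the canonical transcript (Spearman rho = 0.586 in Kuramochi, 0.568 in OVCAR4 and 0.244 in OVCAR8), so that short messages were lower on 3D. Over the 46 members rho was 0.455, 0.56 and 0.017. In single libraries, levels relative to the mean of the line also tracked length, unequally and mostly by culture. In 3D libraries rho was 0.239 to 0.567, apart from -0.066 in OVCAR8 replicate 4. In plastic libraries it was -0.674 to -0.101, apart from 0.119 in Kuramochi replicate 2 (against -0.649 in its replicate 4). A trend over length that comes from the libraries can therefore not be fully told apart from the culture. The replication genes lay below genes of like length in each bin, with a median of -0.553 for the 14 members of 1500 to 2500 bases in Kuramochi against -0.214 for 2148 genes of that length. In OVCAR4 these medians were -0.612 and -0.187, and in OVCAR8 -0.367 and -0.114. With the trend over length and GC content taken out of each library, a setting chosen after seeing the data, 34, 39 and 27 of the 46 fell and none rose. Of all 22023 genes, 2434, 2698 and 1500 were then called lower, against 2829, 2610 and 731 in the reported fit. In that setting 21 members were lower in all 3 lines, CDT1 passed the joint test of the difference between lines (adjusted p = 0.0367), and the estimate of CLSPN in Kuramochi turned to -0.43 (adjusted p = 0.0446).

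**Figure D5:**
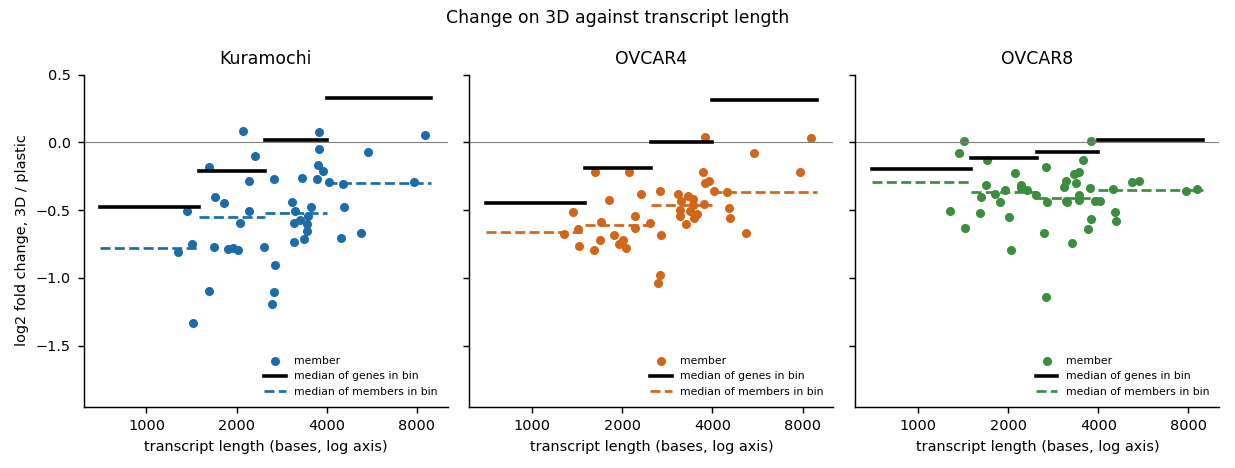
Log2 fold change on 3D (y axis) of the 46 genes (points) against the length of their canonical transcript (x axis, log scale) in each line, with black lines at the median of all genes at 10 CPM or more in each of 4 length bins and dashed lines at the median of the members in the bin. The dashed lines lie below the black lines in every bin of every line.

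Promoters of the 46 genes were searched for letters bound by the E2F factors, since E2F1 and its targets are among the members. RefSeq promoters (250 bases before to 50 after the start, GRCh38.p14) matched 39 of the 46 symbols. Where a member had more than 1 promoter, the first was searched, while the count over all promoters took in each one. One of TTTGGCGC, TTTCCCGC, TTTCGCGC or TTTGCCGC was found on either strand in 21 of 39 (53.8%), against 3.31% of 35116 promoters. CCAAT, on either strand, was found in 22 of 39 (56.4%), against 34.61% of all promoters. The cell cycle homology element TTTGAA, known from G2/M genes, was found in 1 of 39 (2.6%), against 15.16% of all promoters. The E2F letters are rich in G and C, and promoters were not matched for base composition. Median log2 fold changes of members with and without an E2F match were -0.481 (n = 21) and -0.599 (n = 18) in Kuramochi. They were -0.545 and -0.511 in OVCAR4, and -0.345 and -0.393 in OVCAR8. The difference between members with and without a match was not tested.

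The 150 bases before the start are shown for 5 members that turn up in the results above, 4 with a match and TK1. The first of the 2 promoters of TK1, which was the 1 searched, has none. They are given 5′ to 3′ on the strand of the gene, in lower case with E2F matches in capitals, from RefSeq on GRCh38.p14. TK1 lies at chr17:78187205-78187354 (minus strand), GINS2 at chr16:85688955-85689104 (minus strand), TYMS at chr18:657503-657652 (plus strand), PCNA at chr20:5126623-5126772 (minus strand) and E2F1 at chr20:33686386-33686535 (minus strand).
TK1 promoter: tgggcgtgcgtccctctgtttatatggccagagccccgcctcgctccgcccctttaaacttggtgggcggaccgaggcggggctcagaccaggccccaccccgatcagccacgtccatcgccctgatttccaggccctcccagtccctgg
GINS2 promoter: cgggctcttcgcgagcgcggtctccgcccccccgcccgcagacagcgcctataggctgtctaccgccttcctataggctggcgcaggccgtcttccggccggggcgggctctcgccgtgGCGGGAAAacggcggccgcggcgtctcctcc
TYMS promoter: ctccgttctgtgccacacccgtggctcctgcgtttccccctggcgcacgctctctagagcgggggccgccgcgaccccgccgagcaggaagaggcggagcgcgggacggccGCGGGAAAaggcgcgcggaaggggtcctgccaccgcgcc
PCNA promoter: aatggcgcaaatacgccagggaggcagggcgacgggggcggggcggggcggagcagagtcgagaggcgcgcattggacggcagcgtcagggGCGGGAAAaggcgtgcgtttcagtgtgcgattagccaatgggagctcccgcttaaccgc
E2F1 promoter: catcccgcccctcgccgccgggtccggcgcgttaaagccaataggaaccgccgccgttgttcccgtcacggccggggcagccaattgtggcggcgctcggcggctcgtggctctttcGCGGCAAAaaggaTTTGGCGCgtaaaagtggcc
The match begins 31 bases before the start in GINS2, 39 in TYMS and 59 in PCNA, in each as TTTCCCGC on the opposite strand. E2F1 has a pair of matches, TTTGCCGC on the opposite strand and TTTGGCGC on its own strand, that begin 33 and 20 bases before the start. The log2 fold changes of the 5 genes in Kuramochi were -1.33 ± 0.19 for TK1, -1.19 ± 0.20 for GINS2 and -1.10 ± 0.18 for TYMS. They were -0.81 ± 0.16 for PCNA and -0.91 ± 0.14 for E2F1. The 5 genes were picked for display, and a relation between matches and falls was not tested.

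Genes around the replication machinery were read from lists of other factors. Of 24 other replication factors, 10 fell in Kuramochi, 11 in OVCAR4 and 2 in OVCAR8, and none rose by edgeR, also at an unadjusted p under 0.05, or by DESeq2 (median log2 fold changes -0.26, -0.36 and -0.23). For the lists of this paragraph, the shares of all genes were 12.8%, 11.9% and 3.32% lower and 14.4%, 15.2% and 7.51% higher. GMNN, geminin, which inhibits CDT1, fell with it in Kuramochi (-0.94 ± 0.17, adjusted p = 0.00134) and OVCAR4 (-0.75 ± 0.17, adjusted p = 0.00523). Of 8 other nucleotide enzymes, 3, 3 and 2 fell and 1 rose in each line (2 rose in OVCAR4 with the replicate block). With 8 genes, the counts that rose lie near the shares of all genes, and nothing is read from them. DTYMK, which converts the product of TK1 and TYMS, fell by -1.02 ± 0.17 in Kuramochi (adjusted p = 0.000511) and -1.05 ± 0.17 in OVCAR4 (adjusted p = 0.000608). Of 20 genes of G2 and mitosis, 12, 13 and 9 fell and none rose under the same rules, with medians of -0.64, -0.49 and -0.51. Their changes followed transcript length (Spearman rho = 0.883, 0.896 and 0.553) more closely than those of the 46 members (0.455, 0.56 and 0.017). CCNB1, cyclin B1, fell by -0.97 ± 0.14, -0.75 ± 0.14 and -0.66 ± 0.14 (adjusted p = 0.000212, 0.00159 and 0.00505).

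The upstream regulators moved in both directions. Of 14 G1 cyclins, CDKs and CDK inhibitors, 2 rose and 5 fell in Kuramochi, 2 rose and 4 fell in OVCAR4, and 1 rose and 3 fell in OVCAR8, beside 14.4%, 15.2% and 7.51% of all genes higher and 12.8%, 11.9% and 3.32% lower. Of 15 pocket proteins, other E2Fs and DREAM or MuvB subunits, 3 rose and 2 fell, 0 rose and 3 fell, and 0 rose and 1 fell in the same order. At an unadjusted p under 0.05 edgeR had 4 and 1 higher in OVCAR4 and OVCAR8, and DESeq2 called 0 and 1. With so few genes, several of these counts lie near the shares of all genes, and nothing is read from them about either list. RB1, the retinoblastoma protein that holds E2F in check, rose in Kuramochi from 73.4, 53.3 and 67.3 to 97.3, 125 and 123 CPM (0.83 ± 0.15, adjusted p = 0.000915), and its estimates were 0.40 ± 0.15 in OVCAR4 (adjusted p = 0.053) and 0.29 ± 0.15 in OVCAR8 (adjusted p = 0.223). The call in Kuramochi held without any 1 library. RB1 has 6434 bases of merged exons, and the estimates above are not corrected for length. Genes with canonical transcripts over 4000 bases had median changes of 0.329 in Kuramochi, 0.315 in OVCAR4 and 0.014 in OVCAR8. OVCAR8 had little RB1 on plastic (11.2 ± 1.51 CPM, against 64.7 ± 10.3 CPM in Kuramochi and 47 ± 7.86 CPM in OVCAR4). MYBL2, a cell cycle transcription factor, fell from 234, 349 and 275 to 140.4, 113 and 107 CPM in Kuramochi (-1.25 ± 0.16, adjusted p = 6.98e-05) and by -0.81 ± 0.16 in OVCAR4 (adjusted p = 0.002). CDK2, the kinase partner of cyclin E, rose in Kuramochi from 61, 74.1 and 68.8 to 113, 93.6 and 93.4 CPM (0.56 ± 0.13, adjusted p = 0.00448), against the direction of CCNE1 there. CDKN2B, the CDK4 inhibitor p15, rose in OVCAR4 from 26.2, 14.5 and 15.6 to 39.5, 56.5 and 57.4 CPM (1.45 ± 0.25, adjusted p = 0.00127). CCND2, a D-type cyclin, was at 0 CPM in every plastic library of OVCAR4 and OVCAR8 and at 0.68, 1.5 and 1.2 CPM and 0.298, 2.01 and 0.971 CPM in their 3D libraries. The fibroblast marker sum was also higher there, except in OVCAR8 3D replicate 4.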

How the data were processed

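RNA-seq counts of 18 libraries were analyzed, 3 for each of 3 lines in 3D omentum culture and on plastic. The deposited values are read counts per gene, made by the authors from a stranded mRNA kit with Trimmomatic 0.33, TopHat2 2.1.0 and HTSeq on GRCh38 with GENCODE 25, with no scaling, with no strand setting named in the sources used here. Names were matched through GENCODE 44 (57532 of 58288 IDs, 99.75% of counts), and no row lacked a gene. The members and lists were chosen with earlier results of these data known.

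Tests used edgeR 4.0.16 (quasi-likelihood F-test, robust fit, TMM factors, filterByExpr set to min.count 10 and min.total.count 15) in R 4.3.3 with 1 model of 6 groups. P-values were adjusted by Benjamini-Hochberg over 22023 genes for each contrast and called under 0.05, and SE is the absolute log2 fold change over the square root of F. The study calls the experiments independent, but p-values measure only the spread between these libraries. In each role the members with the largest and smallest mean change were named, with the 6 lowest interaction p-values, the 4 lowest between lines on plastic, any call against the majority, and CCNE1, E2F1, PCNA and MCM2. CCNE2, TYMS, RRM2, CDC45, POLD1 and GMNN with the other related genes were named for their role or by the top 3 calls of their list. Values are given for every library where the results turn on them and as ranges elsewhere. The pipeline was tested on simulated data. Deviations of same-numbered 3D and plastic libraries correlated at 0.163, 0.122 and 0.373 in Kuramochi and 0.399, 0.12 and 0.21 in OVCAR4. They correlated at 0.146, 0.166 and -0.143 in OVCAR8, where the libraries share only a number. These values do not settle the pairing. In OVCAR4, 3D replicate 4 with plastic 6 (0.252) and 3D 6 with plastic 4 (0.247) exceeded their same-numbered pairs. The reported fit used no pairing, and the replicate block, which joined same-numbered libraries in all 3 lines, was an alternative. Alternatives were DESeq2 1.42.0, other scalings, no filter, separate fits, the block, close libraries as 1 sample, a 2-fold minimum, each library left out and, added after seeing the data, removal of the trend over transcript length and GC content.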

Additional observations from a re-analysis of the deposited data

Results flagged for a closer look

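The test of a different response between lines passed for 1 of the 46 members and 5 related genes, of which POLD2, E2F5 and SAMHD1 did not hold in every leave-one-out fit. PRIM1 (adjusted p = 0.0122) fell on 3D in Kuramochi and OVCAR4, with an estimate of 0.01 ± 0.11 in OVCAR8. CDK2 (adjusted p = 0.0127) rose in Kuramochi (0.56 ± 0.13 on the log2 scale), with estimates of -0.11 ± 0.13 in OVCAR4 and -0.32 ± 0.13 in OVCAR8. CDKN2B (adjusted p = 0.013) rose in OVCAR4 (1.45 ± 0.25), with 0.70 ± 0.26 in Kuramochi and -0.37 ± 0.26 in OVCAR8. E2F5 (adjusted p = 0.0247) fell in OVCAR4 (-0.44 ± 0.13) and was at 0.39 ± 0.13 in OVCAR8, and the difference was lost without OVCAR4 3D replicate 4 (0.0513) or without any 1 of OVCAR8 3D replicates 61 and 62 and plastic replicates 4 and 62 (0.0653 to 0.0908). SAMHD1 (adjusted p = 0.0216), which breaks down deoxynucleotides, rose in OVCAR8 (1.83 ± 0.26), with 0.66 ± 0.25 in OVCAR4 (adjusted p = 0.0372 with the replicate block) and 0.19 ± 0.25 in Kuramochi, and the difference was lost without OVCAR8 plastic replicate 4 (0.0719) or 62 (0.0716). POLD2 (adjusted p = 0.0494) fell in Kuramochi (-0.86 ± 0.14) and OVCAR4 (-1.05 ± 0.14), with -0.27 ± 0.14 in OVCAR8, and the difference was lost without any 1 of 12 libraries (0.0508 to 0.139) and with the replicate block (0.0879). With close libraries counted as 1 sample none of the 6 passed (adjusted p = 0.125 to 0.355).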

How the results depend on the processing

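Counts of the 46 members that fell are given in the order Kuramochi, OVCAR4 and OVCAR8, beside 29, 33 and 13 in the reported fit. DESeq2 called 29, 35 and 19, RLE factors 29, 33 and 12, and no filter on low counts 29, 32 and 12. With scaling by total counts OVCAR8 had 5, 3 members fell in all 3 lines, and the median of all genes in OVCAR8 moved from 0.017 to 0.136. With a separate fit for each line OVCAR8 had 28. With close libraries counted as 1 sample OVCAR4 had 9, OVCAR8 had 0 (7 at an unadjusted p under 0.05) and 0 members fell in all 3 lines, where fewer samples entered the fit. With the trend over transcript length and GC content removed OVCAR8 had 27, 21 members fell in all 3 lines, and CLSPN in Kuramochi turned to -0.426. With a 2-fold minimum 4, 1 and 1 members fell, and on plastic 8 were higher and 3 lower in OVCAR4 than in Kuramochi, 10 and 1 in OVCAR8 than in Kuramochi, and 9 and 2 in OVCAR8 than in OVCAR4. With the replicate block the counts were 29, 34 and 18, 12 members fell in all 3 lines and 1 differed between lines. In OVCAR8 the libraries share only a number. The block moved no count of members by more than 1.5 times. No member rose in any of these settings. The number of members whose response differed between lines, 1 in the reported fit, was 2 with DESeq2, 2 with total counts, 4 with no filter, 0 with close libraries counted as 1 sample and 2 with the length and GC trend removed. All genes called lower in OVCAR8 numbered 731 in the reported fit, 1088 with DESeq2 and 411 with total counts. They numbered 2347 with the separate fit, 993 with the block and 1500 with the length and GC trend removed. With close libraries counted as 1 sample they numbered 61 in OVCAR8, and 622 in OVCAR4 against 2610 in the reported fit. Counts of members are to be read beside these. The cause of the differences between settings was not tested.

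Leaving out 1 library in turn, the members that fell ranged from 19 to 31 in Kuramochi, from 18 to 36 in OVCAR4 and from 2 to 30 in OVCAR8, those that fell in all 3 lines from 1 to 21, and those that differed between lines from 1 to 4. All genes called lower ranged from 1414 to 3697 in Kuramochi, from 1248 to 3075 in OVCAR4 and from 169 to 1732 in OVCAR8. On plastic OVCAR4 was higher than Kuramochi in 14 to 19 members and lower in 7 to 11, OVCAR8 higher than Kuramochi in 27 to 30 and lower in 6 to 7, and OVCAR8 higher than OVCAR4 in 25 to 29 and lower in 8 to 10. Of the calls in Kuramochi, OVCAR4 and OVCAR8, 19 of 29, 18 of 33 and 2 of 13 held in every such fit. Over promoters of 150 bases before to 50 after the start, E2F letters were in 21 of 39 members (53.8%, against 2.33% of all), CCAAT in 20 (51.3%, against 26.52%) and TTTGAA in 0 (9.42% of all).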
